A study of Homo sapiens with 27 samples.

Results

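The 52 genes described here lie on the long arm of human chromosome 14, in the stretch from SNAPC1 to AHSA1, and were chosen by their position and by their difference between 2 RIPK2 guides in the prostate cancer line PC3. They are 52 of the 20089 gene symbols listed in the count tables of all 3 cell lines of the study. All 52 had enough counts to be tested in each line. On the RefSeq annotation of GRCh38.p14 they span chr14:61187468-77469472, where PRKCH and HIF1A start before SNAPC1 and AHSA1 ends the interval. Because the difference between the PC3 guides chose the genes, its values are given as a description, with no test.

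Genes that share a chromosome segment share its copy number. When a segment is gained or lost in a cell population, the transcripts of many of its genes shift together, whatever their functions, although single genes can be buffered or regulated apart from their neighbours. PC3 and other prostate cancer lines carry rearranged chromosomes, and lines grown from few cells can differ in such segments. DNA copy number was not measured in these samples.

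RIPK2 encodes a kinase that relays signals from the sensors NOD1 and NOD2, and the study compared cells targeted for it by CRISPR with control cells. Bulk RNA sequencing covered 22Rv1, DU145 and PC3, established lines grown from human prostate cancers. Each line gave 3 libraries with control gRNA 1, labelled wild type, and 3 libraries with each of 2 RIPK2 guides, labelled RIPK2 knockout: gRNA 1 and gRNA 10 in 22Rv1, and gRNA 2 and gRNA 10 in DU145 and PC3. The labels do not say whether a guide population is a clone or a pool, nor whether its libraries come from separate cultures, so p-values measure the spread between these libraries, which may be technical.

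Library totals ran from 17958558 to 20650819 counts. RIPK2 stood at 59.3 to 62.4 CPM (each count divided by the scaled total of its library) in the PC3 control libraries, at 20.1 to 21.7 with gRNA 2 and at 25.5 to 28.3 with gRNA 10. The prostate marker KLK3 was at 0 in 8 of 9 PC3 libraries, with 0.0493 CPM in the other one, and VIM was between 1205 and 2180 CPM in all of them. A pair of libraries stood apart from the others of their group: 22Rv1 gRNA 1 replicate 3, in which 16.65% of counts were mitochondrial against 1.924% and 2.1% in its replicates, and DU145 gRNA 2 replicate 3, which correlated at 0.978 and 0.9818 with its replicates where these correlated at 0.9939.

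Promoter sequence is shown for 4 of the genes, since they mark the limits of the pattern in PC3. HIF1A moved with most of the members, TGFB3 differed most in the common direction, and HSPA2 and JDP2 went against it. The 250 bases before 1 annotated transcript start of each gene, the first that the RefSeq promoter table lists, follow 5′ to 3′ on the gene's strand, on GRCh38.p14, with CG dinucleotides in capitals. HIF1A is at chr14:61695263-61695512 (plus strand), TGFB3 at chr14:75983012-75983261 (minus strand), HSPA2 at chr14:64540491-64540740 (plus strand) and JDP2 at chr14:75427474-75427723 (plus strand). The HSPA2 and JDP2 windows lie inside the annotated genes, which begin upstream at 64535905 and 75426943.
HIF1A: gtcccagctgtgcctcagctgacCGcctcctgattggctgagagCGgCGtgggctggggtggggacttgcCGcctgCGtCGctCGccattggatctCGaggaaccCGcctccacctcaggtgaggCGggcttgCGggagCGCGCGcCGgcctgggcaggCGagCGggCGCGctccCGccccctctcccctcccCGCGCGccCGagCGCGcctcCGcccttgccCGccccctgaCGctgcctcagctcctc
TGFB3: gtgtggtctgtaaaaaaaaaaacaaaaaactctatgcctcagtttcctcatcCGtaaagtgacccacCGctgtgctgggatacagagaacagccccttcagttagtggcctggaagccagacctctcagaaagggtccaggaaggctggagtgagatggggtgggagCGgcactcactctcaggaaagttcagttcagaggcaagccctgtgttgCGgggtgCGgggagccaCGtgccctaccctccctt
HSPA2: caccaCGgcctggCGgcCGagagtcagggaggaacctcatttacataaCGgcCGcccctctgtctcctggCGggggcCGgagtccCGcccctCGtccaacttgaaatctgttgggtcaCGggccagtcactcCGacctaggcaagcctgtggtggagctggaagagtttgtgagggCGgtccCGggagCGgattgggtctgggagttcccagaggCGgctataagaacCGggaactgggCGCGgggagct
JDP2: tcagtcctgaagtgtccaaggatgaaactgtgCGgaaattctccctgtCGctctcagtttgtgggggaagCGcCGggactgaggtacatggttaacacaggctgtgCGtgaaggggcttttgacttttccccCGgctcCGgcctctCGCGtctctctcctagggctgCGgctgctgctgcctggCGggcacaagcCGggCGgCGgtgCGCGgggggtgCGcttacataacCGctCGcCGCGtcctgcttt
These windows hold 29 CG dinucleotides in HIF1A, 6 in TGFB3, 18 in HSPA2 and 21 in JDP2, and their GC content is 75.6%, 54.8%, 64.8% and 62.8%. Of the 52 genes, 47 matched a promoter in the table, with a median GC content of 61.6% and a median of 20 CG dinucleotides. Over the genes tested in PC3, 11476 matched promoters had medians of 64.8% and 21. The E-box letters CACGTG, a palindrome, occurred in 5 of the 47 windows (10.6%), TGFB3 among them, against 8.61% of the promoters of genes tested in PC3. The letters ACGTG, searched on both strands and contained in CACGTG, occurred in 15 (31.9%) against 22.9%. A match is a description of these letters and not a bound site.

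In PC3 the 52 genes were higher with gRNA 2 than with gRNA 10 by a median log2 fold change of 1.07, with quartiles of 0.81 and 1.33. The level with gRNA 10 was thus a median of 47.6% of that with gRNA 2. In 50 genes every gRNA 2 library lay above every gRNA 10 library, and in the other 2, HSPA2 and JDP2, every one lay below. Over all 14718 genes tested in PC3, the libraries of these guides did not overlap in 37.3% in the higher direction and 37.6% in the lower, and nothing is read from the members' count because this contrast chose them. The guide populations differed from each other across much of the transcriptome.

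The difference was made of opposite shifts from the control. With gRNA 2, the members' median log2 fold change against control was 0.35, a ratio of 1.28, and 42 of 52 genes were called higher and 3 lower at an edgeR adjusted p below 0.05, where 32.1% of all genes tested were called higher and 31.5% lower. With gRNA 10, the median was -0.77, or 58.5% of control, and 3 genes were called higher and 47 lower, where 37.9% and 35.6% of all genes were. The median over all genes tested was 0.01 in each contrast. These contrasts use the same guide libraries that chose the genes and share their control libraries, so their counts describe the pattern and are not independent evidence of it.

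The pattern held in each library. Relative to the control mean, the members' median log2 level was 0.31, 0.35 and 0.33 in the gRNA 2 libraries and -0.75, -0.79 and -0.74 in the gRNA 10 libraries. Together the 52 genes took 0.704%, 0.708% and 0.709% of all counts in the control libraries, 0.926%, 0.916% and 0.917% with gRNA 2, and 0.442%, 0.442% and 0.443% with gRNA 10. The 3 groups did not overlap on either measure. In bulk RNA, a change in all cells of a population and a change in a fraction of them cannot be told apart.

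**Figure D1:**
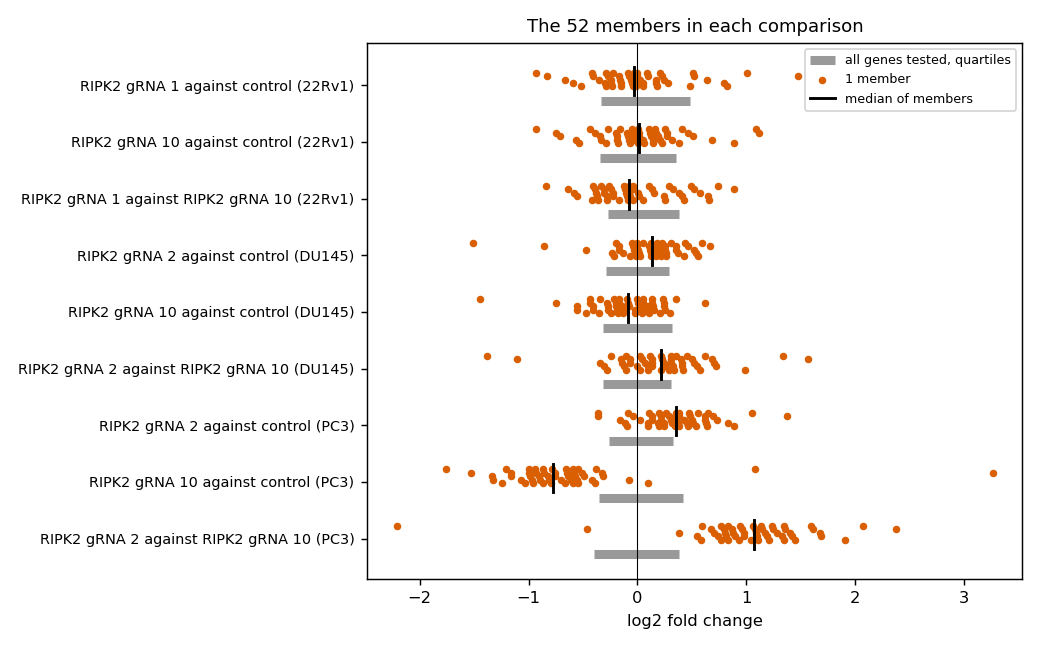
Log2 fold changes (horizontal axis) of the 52 genes in 9 comparisons, 3 for each line. Each orange point is 1 gene, the black line their median and the grey bar the quartiles of all genes tested; the PC3 medians are 0.35, -0.77 and 1.07, and those of the other lines lie between -0.09 and 0.22.

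Among the transcription genes, HIF1A, the oxygen-regulated subunit of the hypoxia-inducible factor, was at 395.7, 443.4 and 439.6 CPM in control, at 524.9, 522.9 and 487.2 with gRNA 2 and at 258.7, 270.2 and 275.2 with gRNA 10. The 3 groups were fully separated, with log2 fold changes against control of 0.26 (SE 0.041) and -0.67 (SE 0.042). SNAPC1, a subunit of the complex that activates small nuclear RNA promoters, had 34.1, 29.5 and 28.4 CPM in control, 53.6, 51.1 and 47.8 with gRNA 2 and 17.1, 16.2 and 17.1 with gRNA 10. SNAPC1 moved further than HIF1A in both directions, by 0.73 and -0.86. YLPM1, a nuclear RNA-binding protein, moved by 0.35 and -0.42. Of the 10 genes in this group, 7 were called higher and 2 lower with gRNA 2, and 1 higher and 9 lower with gRNA 10. Over all genes tested, 32.1% were called higher and 31.5% lower with gRNA 2, and 37.9% and 35.6% with gRNA 10. The same shares apply to the counts of the role groups below. All these counts reuse the libraries that chose the genes and are a description. The genes that fell with gRNA 2 were ZBTB1, a zinc finger protein of lymphoid development, by 0.10 and CHURC1, a small zinc finger protein, by 0.36. MAX, the dimer partner of MYC, rose by 0.31 with gRNA 2 and fell by 0.93 with gRNA 10.

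All 7 genes of RNA processing and translation rose with gRNA 2 and fell with gRNA 10. EIF2S1 encodes the alpha subunit of the initiation factor eIF2, whose phosphorylation slows translation under stress. It was at 239.4, 233.4 and 234.1 CPM in control, 364.6, 343.2 and 331.4 with gRNA 2, and 135.2, 133.9 and 138.8 with gRNA 10. EIF2B2, a subunit of the exchange factor that recharges eIF2, had 109.6, 104.4 and 109.4 CPM in control, 131.1, 136.5 and 146.3 with gRNA 2 and 63.7, 65.2 and 69.5 with gRNA 10. Both subunits thus kept the order of most members, without overlap between groups. ZFP36L1, which promotes decay of AU-rich mRNAs, had the largest guide difference of the group, at 1.69 (SE 0.043). Its gRNA 10 libraries were at 49.1, 48.8 and 49.2 CPM against 110.3 to 117.5 in control. SRSF5, a splicing factor, rose by only 0.10 with gRNA 2 and fell by 0.58 with gRNA 10, and ERH, a small conserved RNA-processing cofactor, moved by 0.47 and -0.51.

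The 4 genes of genome maintenance and mitosis also all rose with gRNA 2 and fell with gRNA 10. NEK9, a mitotic kinase that activates NEK6 and NEK7, was at 162.9, 161.2 and 164.4 CPM in control, 263.1, 266.8 and 262.3 with gRNA 2 and 125, 123.2 and 126.3 with gRNA 10. Its shift was larger upwards (0.70) than downwards (-0.38). MLH3, a mismatch repair and meiotic crossover protein, had the reverse balance, with 0.39 and -1.03, as did DCAF5, a substrate receptor of cullin ubiquitin ligases, with 0.43 and -0.90. RAD51B, a recombination paralog, was low in every library (3.9 to 10.5 CPM) and moved by 0.89 and -0.32.

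Metabolic and glycosylation genes shifted mostly downwards. All 11 were called lower with gRNA 10, by a median of 0.85, where 35.6% of all genes were. With gRNA 2, 6 were called higher and 1 lower, at a median of 0.10, where 32.1% and 31.5% of all genes were. MTHFD1, a folate-cycle enzyme, was at 332.4, 341.1 and 325.1 CPM in control, 359.6, 358.1 and 353 with gRNA 2 and 166.9, 163.8 and 173.6 with gRNA 10. FUT8, which adds the core fucose to N-glycans, was at 153, 166.2 and 157.1 CPM in control, 186.9, 177.7 and 178.3 with gRNA 2 and 99.8, 101.1 and 103.3 with gRNA 10. For both, the gRNA 10 libraries were far below control while the gRNA 2 libraries were only slightly above it. POMT2, a protein O-mannosyltransferase, was nearer to symmetry, with 0.54 and -0.56. FNTB (the beta subunit of farnesyltransferase), GSTZ1 (an enzyme of tyrosine breakdown), RDH11 (a retinal reductase) and ALDH6A1 (a valine-breakdown dehydrogenase) did not pass the test with gRNA 2, with values of -0.16, -0.04, -0.09 and 0.02. ARG2, the mitochondrial arginase, fell with both guides, by 0.36 and 1.32.

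All 7 membrane traffic genes rose with gRNA 2 and fell with gRNA 10. TMED10, a cargo receptor of the early secretory pathway, was at 521.7, 516.5 and 540 CPM in control, 612.6, 595.3 and 606.6 with gRNA 2 and 341.3, 337.9 and 351.8 with gRNA 10. SLC39A9, a zinc transporter, was at 187, 196.2 and 195.8 CPM in control, 250.9, 246.6 and 241.7 with gRNA 2 and 94.7, 94.9 and 101 with gRNA 10. The groups of both genes were separate, and the range of the whole group of genes was narrow, from 0.13 to 0.63 with gRNA 2 and from -0.99 to -0.55 with gRNA 10. TMED8 moved by 0.50 and -0.64 and VIPAS39, a partner of VPS33B in endosomal sorting, by 0.63 and -0.55. ATP6V1D, a subunit of the proton-pumping V-ATPase, moved by 0.13 and -0.76.

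Cytoskeletal and signalling genes ranged between guides from 0.38 to 2.38. PNMA1, a paraneoplastic antigen, was at 1096, 1042 and 1069 CPM in control, 1374, 1381 and 1408 with gRNA 2 and 364, 361.5 and 386.8 with gRNA 10. TGFB3, a secreted ligand of the TGF-beta family, was at 30.6, 27.7 and 27.9 CPM in control, 44.6, 43.7 and 44.2 with gRNA 2 and 8.17, 8.52 and 8.8 with gRNA 10. VASH1, a tubulin carboxypeptidase that restrains angiogenesis, was at 76, 75.9 and 74.9 CPM, 130.4, 131 and 141.4, and 30.2, 33.2 and 32.6 in the same order. These 3 genes had the largest guide differences among those higher with gRNA 2, at 1.90 (SE 0.036) for PNMA1, 2.38 (SE 0.066) for TGFB3 and 2.07 (SE 0.048) for VASH1. PLEK2, an actin-associated pleckstrin, rose by 1.38 with gRNA 2 and stood at -0.08 with gRNA 10, which did not pass the test.

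ACTN1, the actin cross-linker alpha-actinin 1, went the same way with both guides. It was at 533.6, 557.2 and 557 CPM in control, 868.1, 851.6 and 846.7 with gRNA 2 and 607.9, 574.3 and 577.8 with gRNA 10. With gRNA 10 it was thus the only gene of its group that rose, by 0.10 (SE 0.034), while with gRNA 2 it rose by 0.64. PRKCH, a protein kinase C, is the first gene of the set by position and had the smallest difference, 0.38 (SE 0.065); its gRNA 2 libraries, at 35.4, 31.4 and 33 CPM, overlapped the control libraries at 35.3, 39.4 and 33. TTLL5, a tubulin glutamylase, moved by 0.19 and -0.39. SYNE2, a giant nuclear-envelope linker, was at 36.5, 44.8 and 35.4 CPM in control, 46.8, 58 and 47.4 with gRNA 2 and 31.9, 36.4 and 25 with gRNA 10, and passed the test with neither guide.

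The chaperone genes were split. AHSA1, the activator of the HSP90 ATPase and the last gene of the interval, was at 245.7, 237.1 and 237.7 CPM in control, 286.8, 276 and 290.5 with gRNA 2 and 156.3, 157 and 165.7 with gRNA 10. HSPA2, a member of the HSP70 family best known from the testis, was at 4.54, 5.52 and 5.51 CPM in control, 7.73, 7.24 and 8.95 with gRNA 2 and 9.96, 11.7 and 11.2 with gRNA 10. It rose with both guides, by 0.62 (SE 0.12) and 1.08 (SE 0.11). JDP2, a bZIP repressor that pairs with JUN, was hardly expressed in control, at 0.35, 0.448 and 0.546 CPM. It reached 1.18, 0.838 and 0.791 with gRNA 2 and 4.45, 4.09 and 4.52 with gRNA 10, a log2 change of 3.26 (SE 0.22). Both exceptions were among the lowest members in PC3 control and highest in the population where most members were lowest.

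**Figure D2:**
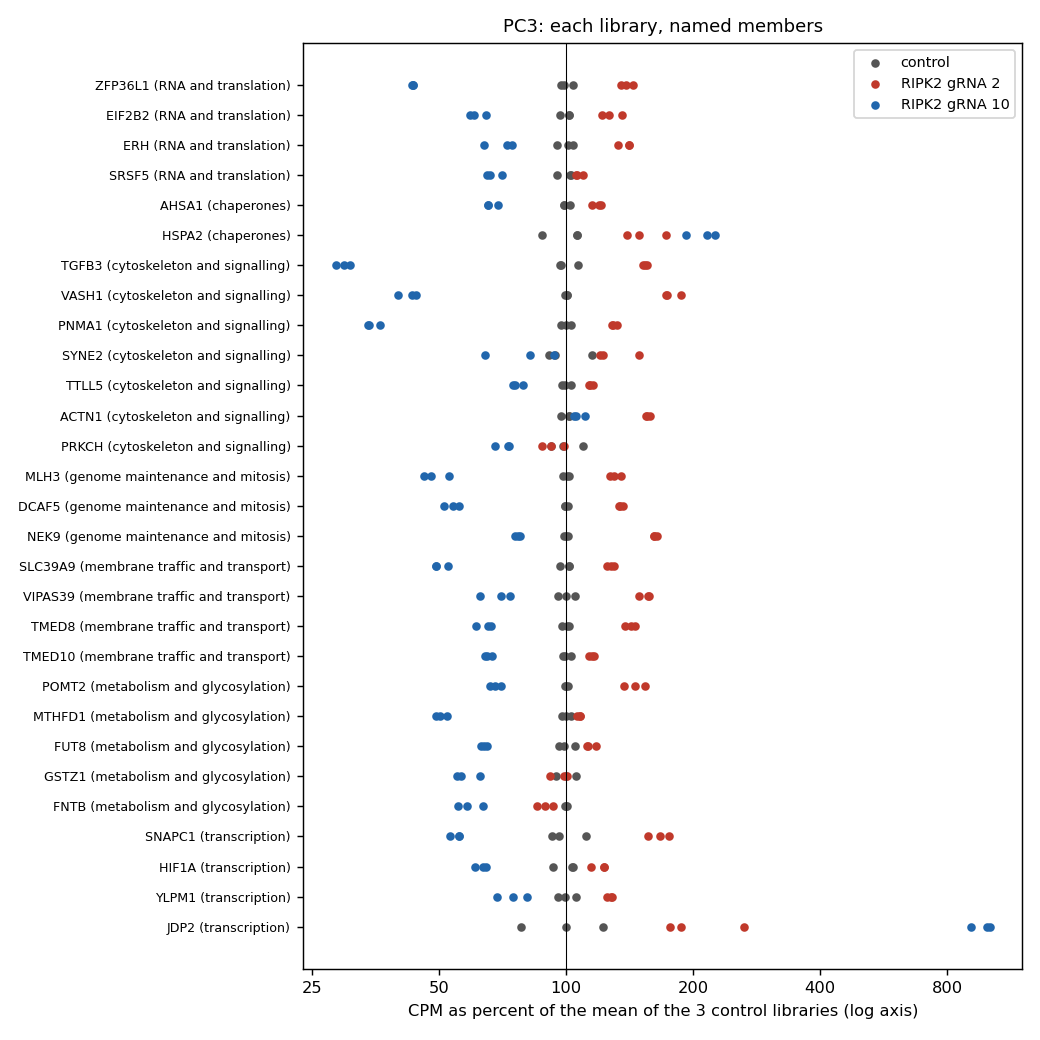
CPM of 29 named members in the 9 PC3 libraries as a percentage of the mean of the 3 control libraries (horizontal log axis), ordered by role; grey points are control, red gRNA 2 and blue gRNA 10. Red points lie mostly right of the control. Blue points lie left of the control, except in ACTN1, HSPA2 and JDP2, where they lie right of it, and in SYNE2, where they overlap it.

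The change shared a direction but not a size. The interquartile range of the guide difference was 0.52 over the members and 0.77 over all genes tested. Because this difference chose the members, nothing is read from their narrower spread. Of the 52 members, 24 lay within 0.25 of their median, while 11 lay more than 0.5 away. The median standard error of a member was 0.047, and the 95% interval covered the members' median in 13 of 52. As a description, the genes differed from one another by more than their errors between libraries, a spread that may be technical. The same held for each guide against control, in contrasts that share these guide libraries. There, 11 intervals covered the median in either contrast. Expression level did not separate the sizes, since the 26 genes with the higher mean CPM and the 26 with the lower both had a median of 1.07. By position, the first 26 genes had a median difference of 1.01 and the last 26 of 1.09, but a different make-up: 0.24 with gRNA 2 and -0.84 with gRNA 10 in the first, 0.37 and -0.63 in the last.

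Other genes of the interval shifted alike. Between SNAPC1 and AHSA1, 130 further genes are listed, and 69 were tested in PC3. Their medians were 0.40 with gRNA 2, -0.66 with gRNA 10 and 0.98 between guides. Of these, 49 were called higher and 4 lower with gRNA 2, where 32.1% and 31.5% of all genes tested were. With gRNA 10, 9 were called higher and 50 lower, where 37.9% and 35.6% of all genes were. PCNX1, a pecanex family protein at chr14:70907459-71115382, was at 133.5, 150.8 and 144.2 CPM in control, 228.9, 232.6 and 226.8 with gRNA 2 and 68.3, 70.6 and 60.7 with gRNA 10. DLST, a subunit of the 2-oxoglutarate dehydrogenase complex, RBM25, a splicing regulator, and AREL1, a ubiquitin ligase, had guide differences of 1.21, 0.88 and 1.13. IRF2BPL, a nuclear regulator at chr14:77024543-77028708, did not follow: it fell with both guides, by 0.16 and 0.33, and its guide difference was 0.17 (SE 0.035).

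The guide difference did not start or stop at the ends of the interval. Just before it, SIX4, a homeobox factor, MNAT1, a subunit of the CDK-activating kinase, TRMT5, a tRNA methyltransferase, and SLC38A6, an amino acid transporter, had guide differences of 0.81, 0.86, 0.81 and 0.94. Just after it, SPTLC2, of sphingolipid synthesis, ALKBH1, a demethylase, SLIRP, a mitochondrial RNA-binding protein, and SNW1, a splicing cofactor, had 0.98, 1.27, 1.55 and 1.00. ISM2, a low gene next to AHSA1, had 2.60. The guide difference therefore continued on both sides, with a different make-up in the named genes before the interval. With gRNA 2 against control, SIX4, MNAT1, TRMT5 and SLC38A6 were at -0.05, 0.13, 0.14 and 0.02. With gRNA 10 they were at -0.85, -0.72, -0.67 and -0.91. After the interval, SPTLC2, ALKBH1, SLIRP and SNW1 were at 0.22, 0.46, 0.60 and 0.37 with gRNA 2. With gRNA 10 they were at -0.76, -0.81, -0.95 and -0.63, where the members' medians were 0.35 and -0.77. ISM2 differed from them, at 2.83 and 0.23.

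In windows of 5 Mb, taken after the values were seen and described without a test, the drawn limits of the shifts differed between guides. With gRNA 10, the window medians against control were -0.52 at 45 to 50 Mb (14 genes, quartiles of -0.91 and 0.07), -1.01 at 50 to 55, -0.64 at 55 to 60, -0.85 at 60 to 65, -0.81 at 65 to 70, -0.66 at 70 to 75 and -0.64 at 75 to 80, against 0.14 to 0.30 in the well-filled windows before 40 Mb and 0.12, 0.16 and -0.25 at 90 to 95, 95 to 100 and 100 to 105 Mb. With gRNA 2, they were -0.03 and -0.02 at 50 to 60 Mb, 0.10 at 60 to 65, and 0.38, 0.41 and 0.38 at 65 to 80, then 0.91 at 85 to 90 (8 genes), 0.40 at 90 to 95 with quartiles of -0.63 and 0.93, and -0.43, -0.51 and -0.65 beyond 95 Mb. The 52 genes thus lie where a low stretch of the gRNA 10 population overlaps a high stretch of the gRNA 2 population. The low stretch was seen in the windows from 50 to 80 Mb, with mixed values in the window before them. The high stretch ran from about 65 Mb into the window at 90 to 95 Mb. In that window, 15 genes were above control with gRNA 2 and 10 below. All 10 below start at ITPK1 (-0.73, from chr14:92936914) or later. The window at 60 to 65 Mb, which holds the first members, showed little of the gRNA 2 rise.

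**Figure D3:**
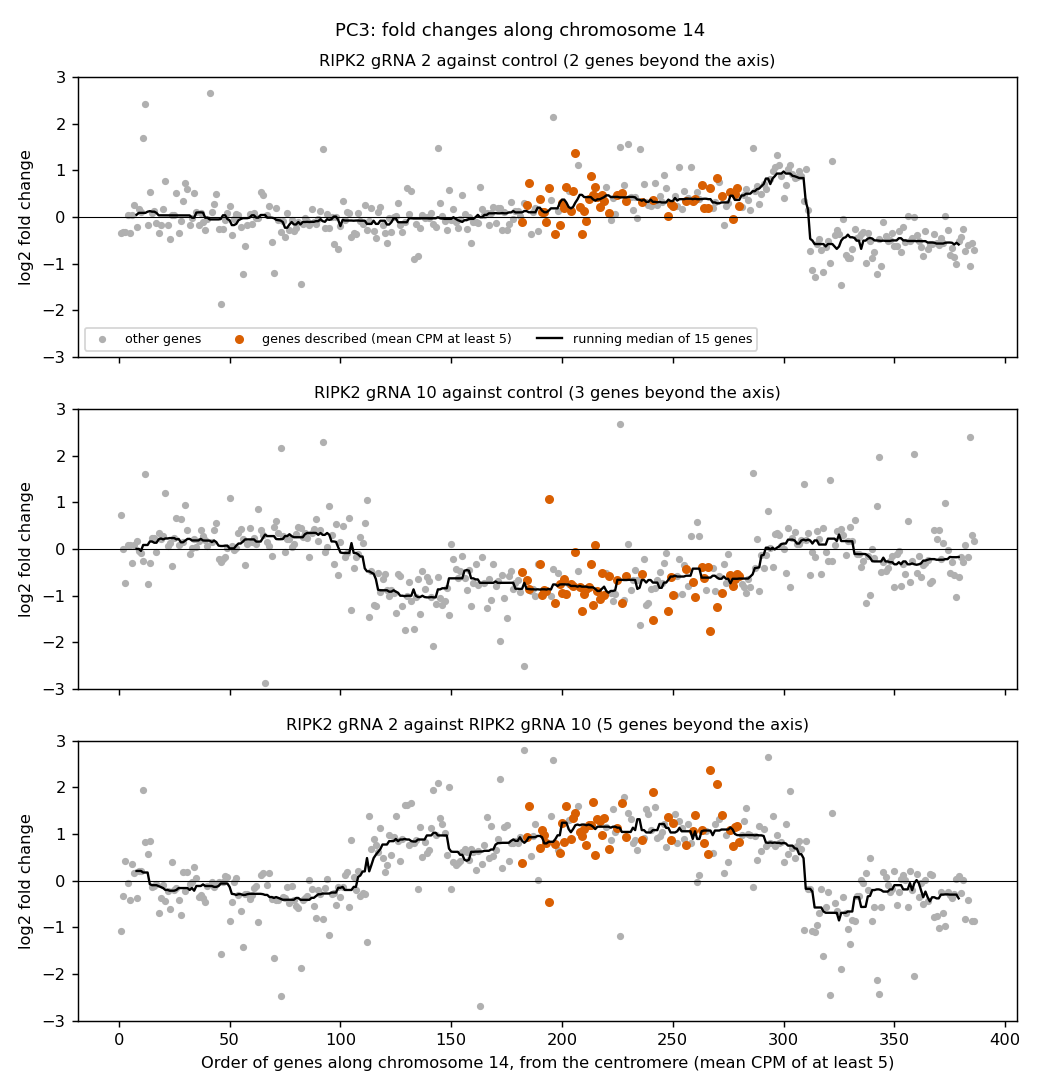
Log2 fold change (vertical axis) of genes with a mean of at least 5 CPM, in their order along chromosome 14 in PC3, for gRNA 2 against control, gRNA 10 against control and gRNA 2 against gRNA 10; orange points are members, grey points other genes, and the line is a running median of 15 genes. The line is low over the members with gRNA 10 (window medians of -0.85 to -0.64) and high with gRNA 2 (0.10 to 0.41), and neither shift is limited to the members.

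Chromosome 14 was not alone. Among 408 windows of the genome with at least 10 such genes, 68 windows on 16 chromosomes had a median of at least 0.5 in size between the PC3 guides, 7 of them on chromosome 14. The windows at 65, 70 and 75 Mb, with medians of 1.19, 1.11 and 1.03, ranked 5, 6 and 7 by size. Against control, 39 windows reached 0.5 with gRNA 2 and 59 with gRNA 10. Whether DNA copy number moved with any of them was not tested.

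Genes that work with the members but lie on other chromosomes were spread around no change. Over 66 partners in the same complexes, the gRNA 2 median was 0.004 and the gRNA 10 median -0.03. With gRNA 2, 22 were called higher and 24 lower, where 32.1% and 31.5% of all genes tested were. With gRNA 10, 27 were called higher and 21 lower, where 37.9% and 35.6% of all genes were. The partners' counts were near these shares. For eIF2, EIF2S2, the beta subunit, was at 0.04 and -0.18 while EIF2S1 was at 0.56 and -0.79. EIF2S3, the gamma subunit on the X chromosome, rose by 0.10 and fell by 1.07, from 491 to 500 CPM in control to 234 to 239 with gRNA 10. Of the 4 partners of EIF2B2, 3 rose and 1 fell with gRNA 2, and 2 rose and 2 fell with gRNA 10; EIF2B1, at 0.52 and -0.19, was the one that moved in the direction of EIF2B2 with both guides.

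MYC, the partner of MAX, fell with both guides, by 0.45 and 1.39, from 195 to 208 CPM in control to 142 to 149 and 72.6 to 78.6. The MAX partners as a group gave 2 higher and 5 lower of 7 with gRNA 2 and 3 higher and 2 lower with gRNA 10. Over all genes tested, 32.1% were called higher and 31.5% lower with gRNA 2, and 37.9% and 35.6% with gRNA 10. The partners of ATP6V1D taken here were 7 other V-ATPase subunits, which are not the whole complex. Of these 7, none rose and 4 fell with gRNA 2 (ATP6V1B2, ATP6V1E1, ATP6V1F and ATP6V1G1). With gRNA 10, 3 rose (ATP6V1C1, ATP6V1E1 and ATP6V1H) and 1 fell (ATP6V1B2). Their medians were -0.24 and -0.05, while ATP6V1D, encoded in the segment, was at 0.13 and -0.76.

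In DU145, whose libraries the choice of genes did not use, the 52 genes showed smaller differences, with members moving both ways in each contrast. With gRNA 2 against control the median was 0.13, and 15 genes rose and 3 fell, where 17.1% of all 14908 genes tested rose and 17.0% fell. With gRNA 10 the median was -0.09, with 4 genes higher and 11 lower against backgrounds of 20.2% and 19.8%. Between the guides the median was 0.22, with 19 genes higher in gRNA 2 and 4 lower against 19.2% and 19.6%. Without DU145 gRNA 2 replicate 3, the calls were 25 and 3, 8 and 19, and 25 and 3, and the medians 0.19, -0.09 and 0.22. The share of all genes called without that library is not given, so nothing is read from these calls. The medians of all genes tested were 0.01, 0.00 and 0.02. Other lists were shifted as well. The 66 partners encoded on other chromosomes had medians of 0.10, 0.03 and 0.17. Genes of chromosome 14 before SNAPC1 had 0.06, -0.31 and 0.34. The shift is thus not particular to the members. The median standard error of a member was 0.11, and whether the members' changes differ between lines was not tested.

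EIF2B2 rose most with gRNA 2 among the members called there, from 35.6, 36.8 and 35 CPM in DU145 control to 54.6, 52.2 and 63.9 (log2 0.67, SE 0.092, edgeR adjusted p = 0.000474). VASH1 fell from 16.5, 16 and 17.1 CPM to 6.9, 7.8 and 2.65 (log2 -1.51, edgeR adjusted p = 0.00247), the opposite of its rise in PC3; without replicate 3, its change was -1.17. FUT8 rose with gRNA 10 from 42.5, 42.8 and 43.4 CPM to 69.9, 61.6 and 65.8 (log2 0.62, edgeR adjusted p = 0.000493). JDP2 fell with gRNA 10 from 34.1, 32.7 and 38.7 CPM to 13, 11.7 and 14 (log2 -1.45, edgeR adjusted p = 0.000165), where it had risen in PC3. None of these groups overlapped with control. HSPA2 fell by 0.86 with gRNA 2, from 52 to 55.9 CPM in control to 23.4 to 33.6, and ZFP36L1 fell by 0.75 with gRNA 10.

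In DU145 with gRNA 10, low window medians lay elsewhere on chromosome 14. They were lowest at 20 to 25 Mb, with -0.67 over 60 genes, and were -0.29 at 30 to 35 Mb, -0.16 at 35 to 40 and -0.27 at 45 to 50, over 19, 20 and 15 genes. Of the 103 genes between 20 and 45 Mb, 70 were called lower and 5 higher, where 19.8% and 20.2% of all genes were. The 114 genes between 60 and 80 Mb, which hold the members, had a median of 0.00, with 14 higher and 20 lower. These windows were picked after the values were seen.

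In 22Rv1, the members were centred on no change. With gRNA 1 against control the median was -0.03, with 8 genes higher and 10 lower, where 25.6% of all 15198 genes tested were higher and 22.9% lower. With gRNA 10 the median was 0.01, with 8 higher and 6 lower against 20.0% and 20.6%. Between the guides the median was -0.08, with 9 higher in gRNA 1 and 9 lower against 18.8% and 16.8%. Without gRNA 1 replicate 3, the calls were 13 and 13, 13 and 12, and 11 and 15, with no share of all genes given for that fit. The members' shares called were at or below the background in each contrast and direction, except for the lower genes between guides, at 9 of 52 against 16.8%, with replicate 3 in.

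Single members did change in 22Rv1. TGFB3 rose from 3.84, 6.29 and 4.72 CPM in control to 13, 11.9 and 16.3 with gRNA 1 (log2 1.47, edgeR adjusted p = 0.000128) and to 11.4, 10.7 and 9.42 with gRNA 10 (log2 1.09). HSPA2 rose from 26.8, 25 and 25.6 CPM to 56.7, 57.9 and 52.9 with gRNA 10 (log2 1.11, edgeR adjusted p = 5.12e-06) and by 1.01 with gRNA 1. Both genes rose with both guides and without overlap with control. PNMA1 fell with gRNA 10 from 68.5, 58 and 65.7 CPM to 32.8, 34.4 and 33.3 (log2 -0.94, edgeR adjusted p = 2.02e-05) and by 0.52 with gRNA 1. HIF1A fell with gRNA 1 from 140.4, 168.1 and 139.3 CPM to 95.5, 87.3 and 52.6 (log2 -0.93, edgeR adjusted p = 0.00209), or by 0.72 without replicate 3, the lowest of the 3.

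Between the 22Rv1 guides, MLH3 was higher with gRNA 1, at 27.5, 25.5 and 21.8 CPM, than with gRNA 10, at 13.5, 14.4 and 12.6 (log2 0.88, edgeR adjusted p = 0.000213). YLPM1 was lower with gRNA 1, at 83.6, 86.2 and 82.7 CPM, than with gRNA 10, at 146.9, 156.6 and 147.8 (log2 -0.84, edgeR adjusted p = 2.13e-05). YLPM1 with gRNA 10 lay at the control level of 144.1 to 154.2 CPM, so the difference was on the side of gRNA 1.

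**Figure D4:**
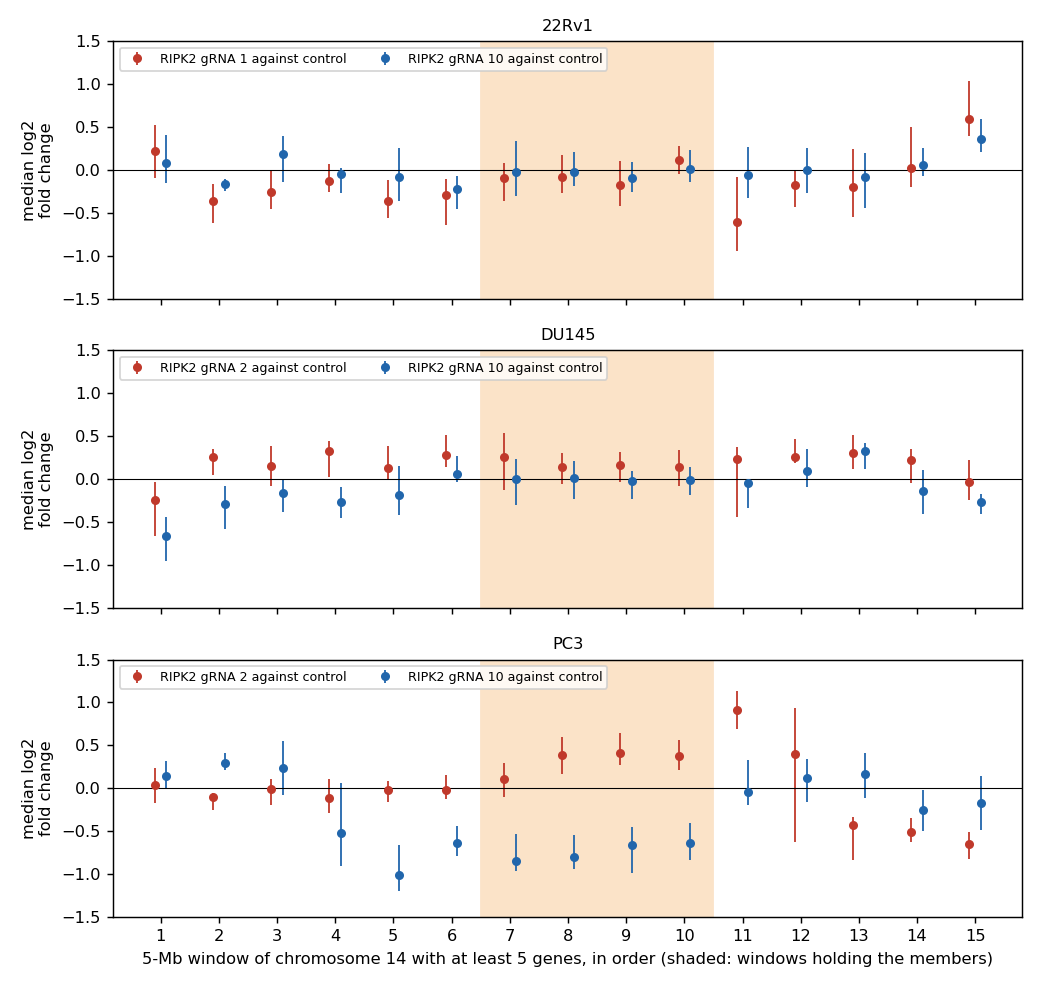
Median log2 fold change against control (points, with quartiles as bars) in 5-Mb windows of chromosome 14, for 22Rv1, DU145 and PC3. Genes with a mean of at least 5 CPM are used. The 15 windows holding at least 5 such genes are drawn in order and evenly spaced. Windows with fewer genes, such as 80 to 85 Mb, are left out. Red is the first RIPK2 guide of the line, blue gRNA 10, and shading marks the windows that hold the members. In PC3 the shaded blue medians lie between -0.85 and -0.64 and the red between 0.10 and 0.41, while in DU145 and 22Rv1 the shaded medians lie between -0.17 and 0.25.

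Reads of overlapping genes limit some single values. Of the 52 members, 21 overlap another gene listed in PC3 with a mean of at least 10 counts, among them FNTB with MAX, ZBTB25 with MTHFD1, and GPHN with several members. The libraries are strand-specific, but the strand setting of the counting is not given in the sources used here, so reads in these overlaps may be shared or lost.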

How the data were processed

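RNA of 27 libraries (3 cell lines, 9 groups of 3) was read as paired 150-base reads on strand-specific mRNA libraries, per the labels' protocols. Per the file headers, the values the authors deposited are raw read counts, in a table for every line with gene symbols as rows. FastQC, STAR, edgeR and the build hg38 are named in the submitters' processing notes, with no role; the counting program and its strand setting are not given in the sources used here. Library totals were 17958558 to 20650819 counts, and no value column was left unused. Repeated symbols were summed (6 symbols in 22Rv1, 2 in each other line).

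Groups and replicate numbers come from the sample titles. For each line, edgeR 4.0.16 (R 4.3.3) was run on the counts across all genes with filterByExpr (minimum count 10, minimum total 15), TMM factors (0.902 to 1.04), group as the single term over the 9 libraries of a line, and the robust quasi-likelihood F test, two-sided. Genes tested numbered 15198 (22Rv1), 14908 (DU145) and 14718 (PC3). A gene is called higher or lower at a Benjamini-Hochberg adjusted p below 0.05 over all genes of the contrast. Standard errors were derived from the F statistic, and intervals of 95% use 1.96 standard errors. CPM are TMM-scaled. The common biological coefficient of variation was 14.2% (22Rv1), 12.3% (DU145) and 3.55% (PC3), so PC3 allows the smallest differences to be called. In a test on simulated counts with 200 genes changed by a fold of 1.5, 26.5%, 48% and 96% were recovered in 22Rv1, DU145 and PC3, over 14989, 14720 and 14492 genes, with 3, 9 and 17 false calls. The changed genes were all well counted and changed only in the first guide of each line. Far more genes were called in the data, so these rates may not carry over to them.

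Positions and promoters come from RefSeq on GRCh38.p14, matched by symbol, with older symbols. The members, their roles, the partners and the windows were chosen with earlier results of these data known. Named are, per role, the 2 members highest in PC3, the 5 largest and 5 smallest guide differences in PC3, those of opposite sign, the first and last 5 by position with 5 genes beyond each end, the largest called rise and fall per contrast in 22Rv1 and DU145, the 5 highest other genes of the interval, line markers, and partners of EIF2S1, EIF2B2, MAX and ATP6V1D. EIF2S1, MAX, ATP6V1D, PLEK2, RAD51B and other members named beyond this rule were chosen after their values were seen. One line marker and 1 gene beyond the interval are not reported here. Alternatives were RLE factors, TMM without chromosome 14, DESeq2 1.42.0, no filter, a mean of at least 10 counts, only the groups compared, a replicate block, each library left out, and, for medians, members with a mean of at least 100 counts.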

Additional observations from a re-analysis of the deposited data

Results flagged for a closer look

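Among the named members, 21 pairs of lines had effects of the same guide against control in opposite directions in every library, and none of these differences between lines was tested. All values are log2 fold changes. With gRNA 10 in 22Rv1 and PC3 they were 0.69 and -0.76 for FNTB, 0.16 and -0.99 for SLC39A9, 0.27 and -0.70 for EIF2B2, 0.25 and -0.39 for TTLL5, 1.09 and -1.76 for TGFB3, and 0.41 and -0.56 for POMT2. With gRNA 10 in DU145 and PC3 they were 0.62 and -0.65 for FUT8, 0.09 and -0.90 for DCAF5, 0.11 and -0.51 for ERH, 0.26 and -0.99 for SLC39A9, 0.21 and -0.70 for EIF2B2, 0.36 and -0.56 for POMT2, and 0.13 and -0.55 for VIPAS39. JDP2 was the one named member that was lower in DU145 and higher in PC3 with gRNA 10, at -1.45 and 3.26. With gRNA 10 in 22Rv1 and DU145 they were -0.20 and 0.62 for FUT8, -0.19 and 0.11 for ERH, and 0.25 and -0.19 for TTLL5. With gRNA 2 in DU145 and PC3 they were -0.47 and 0.38 for SYNE2, -0.86 and 0.62 for HSPA2, -0.24 and 0.62 for TGFB3, and -1.51 and 0.83 for VASH1.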

How the results depend on the processing

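The members' median fold change stayed within 1 SD of its replicates in 72 of 72 values under other settings, and in 77 of 81 with 1 library left out. Leaving out each library gave PC3 medians of 0.331 to 0.359 (gRNA 2 against control), -0.780 to -0.759 (gRNA 10 against control) and 1.05 to 1.09 (between guides), and DU145 medians of 0.116 to 0.190 (gRNA 2 against control) and 0.172 to 0.247 (between guides). Members called stayed within 1.5 times in 53 of 56 values under other settings. With only the groups compared in the fit, 25 were called for 22Rv1 gRNA 10 against control (14 with all groups), 8 for DU145 gRNA 2 against control (18) and 34 for DU145 gRNA 10 against control (15); these fits have fewer libraries, and the cause was not otherwise tested. Leaving out each library gave 10 to 25 for 22Rv1 gRNA 10 against control, 10 to 26 between the 22Rv1 guides, 8 to 28 for DU145 gRNA 2 against control, 6 to 27 for DU145 gRNA 10 against control, 14 to 28 between the DU145 guides, and 43 to 47 and 49 to 50 for the PC3 guides against control. The 25 is without 22Rv1 gRNA 1 replicate 3, the 28 and 27 without DU145 gRNA 2 replicate 3. Shares of all genes called in the alternative fits are not given, so these counts are not read against a background. Adjusted p-values of the named members of 22Rv1 and DU145 stayed at or below 0.01705 under all alternatives run. Replicate numbers were shared between groups, but deviations of same-numbered libraries correlated at -0.119 to 0.406 in 22Rv1, -0.266 to 0.100 in DU145 and -0.0696 to 0.108 in PC3, and libraries matched best with their own number in 6, 5 and 8 of 18 comparisons, so the numbers were not taken as pairs. With the replicate block, PC3 gRNA 2 against control gave 46 called and gRNA 10 against control 51 (45 and 50 without it), DU145 gave 13, 12 and 19 (18, 15 and 23), and 22Rv1 gave 18, 14 and 21 (18, 14 and 18). The median of 22Rv1 gRNA 10 against control, at 0.01, ran from -0.010 to 0.035 with 1 library left out; no other median and no named member past its threshold changed direction under the alternatives run.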

Other observations

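The limits are those of the design. Each guide population is 1 source per line, so a difference between guides and a difference between populations cannot be told apart. RNA counts do not measure DNA, and whether any cells carry a changed segment, or what share of them, was not tested. The mitochondrial share of counts in PC3 was 4.44% to 4.69% in control, 4.34% to 4.59% with gRNA 2 and 2.9% to 3.2% with gRNA 10, and its part in the results was not tested. JDP2, HSPA2 and RAD51B rest on low counts in PC3.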
